A study of Mus musculus with 23 samples.

Results

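This account covers 32 genes of myelin and of mature oligodendrocytes, the cells that wrap axons of the brain and spinal cord. The genes were taken by symbol, from a list of known myelin and oligodendrocyte genes, and kept where the mean over all libraries was at least 10 normalised reads. All 32 were found among the 18848 genes measured and all 32 passed that minimum, the lowest member mean being 354.1. The libraries are 23 RNA-seq libraries of brain from male C57BL/6J mice at postnatal day 17. Of these, 6 are from wild-type mice given vehicle (WT vehicle), 5 from wild-type mice given DCS (WT DCS), 6 from Grin2b heterozygous mice given vehicle (HT vehicle) and 6 from Grin2b heterozygous mice given DCS (HT DCS). The labels call the heterozygous animals heterotype and the allele a knock-in, and the title of the series names it C456Y. DCS is the labels' abbreviation, used most often for D-cycloserine, a partial agonist that binds NMDA receptors where glycine does. GluN2B, the product of Grin2b, is a subunit of these receptors. The labels give no brain region, dose or time after dosing, and do not say whether each library is a separate mouse, so every p-value here measures the spread between libraries, which may be in part technical. Since the allele is a substitution in the protein, the level of Grin2b mRNA does not check the genotype labels.

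Oligodendrocytes arise from precursor cells that express Pdgfra and Cspg4. As they mature, the transcription factors Sox10 and Myrf switch on the genes for myelin proteins and for the enzymes that make myelin lipids. Compact myelin is a spiral of membrane whose cytoplasmic faces are held together by Mbp, while Mag and Cnp lie in the non-compacted parts of the sheath and Mog on its outer face. In the mouse forebrain most myelin is laid down in the weeks around this age, and the hindbrain and spinal cord are myelinated earlier. In tissue RNA, fewer oligodendrocytes and less RNA in each oligodendrocyte cannot be told apart.

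The sequence just upstream of the gene is printed for 3 members with a well-known place in the sheath, as examples. Mag lies at chr7:30899176-30914873 on the minus strand, Cnp at chr11:100574904-100591729 on the plus strand and Mog at chr17:37010743-37023398 on the minus strand (GENCODE annotation of GRCm38). The 190 bases printed run from 250 to 61 bases before the RefSeq transcript start (GRCm38.p6), 5′ to 3′ on the gene's own strand, at chr7:30914924-30915113, chr11:100574689-100574878 and chr17:37023459-37023648. Capitals mark matches on either strand to a SOX-type motif (AACAANG) or to a MYRF-type motif (CTGGNAC).
Mag: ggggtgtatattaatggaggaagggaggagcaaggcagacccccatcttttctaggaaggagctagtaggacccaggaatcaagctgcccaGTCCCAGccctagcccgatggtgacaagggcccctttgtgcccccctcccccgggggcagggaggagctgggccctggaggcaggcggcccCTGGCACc
Cnp: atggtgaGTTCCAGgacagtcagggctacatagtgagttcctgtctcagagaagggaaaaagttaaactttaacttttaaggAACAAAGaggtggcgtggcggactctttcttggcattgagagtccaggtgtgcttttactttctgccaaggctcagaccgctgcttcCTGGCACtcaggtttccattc
Mog: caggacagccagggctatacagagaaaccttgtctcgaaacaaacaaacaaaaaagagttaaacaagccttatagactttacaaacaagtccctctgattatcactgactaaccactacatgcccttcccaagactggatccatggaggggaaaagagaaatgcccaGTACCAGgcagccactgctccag
Mag held 2 MYRF-type matches, Cnp held 2 MYRF-type matches and 1 SOX-type match, and Mog held 1 MYRF-type match. All 3 are among the 8 of 23 members with a MYRF-type match, so they do not stand for the whole group.

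Of the 32 members, 23 had a promoter in the RefSeq table, and the 250 bases before each start were searched for 3 motifs on both strands. The MYRF-type motif was in 8 of the 23 (34.8%), against 4311 of 27025 genes searched the same way. The genes were Apod, Cnp, Hapln2, Mag, Mog, Plekhh1, Ppp1r14a and Tmem125. The SOX-type motif was in 5 of the 23 (21.7%), namely Cnp, Gal3st1, Gpr37, Mobp and Tmem88b, against 12.2% of all genes. The Mobp window held 4 such matches. An E-box of the type that Olig2 and its relatives bind (CAGCTG) was in 2 of the 23 (8.7%), Aspa and Hapln2, against 12.8% of all genes. None of the 3 motifs contains another, and a match describes letters in a window, not a bound site.

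Of the members, 8 are defining markers of mature oligodendrocytes, namely Mbp, Mag, Mog, Mobp, Cnp, Cldn11, Opalin and Ermn. They were chosen as members with a minimum mean, so their presence does not check the tissue label. Every one of the 8 was far above 0 in each library, the lowest value being 540.9 normalised reads for Opalin in HT DCS replicate 6. Together the 32 members took 1.27 ± 0.0578% of normalised reads in the 6 WT vehicle libraries (mean ± SD), 1.24 ± 0.0844% in the 5 of WT DCS, 1.18 ± 0.0807% in the 6 of HT vehicle and 1.09 ± 0.155% in the 6 of HT DCS. Per kilobase of exon, Mbp had the highest level, 25834 normalised reads per kilobase averaged over all libraries. Cnp followed at 6941, Mobp at 6346, Cldn11 at 5711 and Mal at 4788 normalised reads per kilobase. The lowest levels on this scale were those of Aspa, 81.4, and Galnt6, 91.5. The 3 transcription factors lay in the lower part of the order, Sox10 at 835.5, Myrf at 348.4 and Nkx6-2 at 252.7 normalised reads per kilobase.

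The libraries differed from each other along much of the group of genes. With group means removed, a member's Pearson r with the mean of the others ran from 0.31 (Sox10) and 0.41 (Myrf) to 0.98 (Fa2h). Each gene's deviation from its own 23-library mean on the log2 scale was averaged over the 32 members to give 1 value per library. The group means of this value were 0.08 ± 0.09 in WT vehicle, 0.08 ± 0.13 in WT DCS, -0.01 ± 0.12 in HT vehicle and -0.13 ± 0.22 in HT DCS (log2, mean ± SD over libraries). The groups overlapped, since HT DCS replicate 3 stood at 0.15 and WT DCS replicate 4 at -0.10. HT DCS replicate 6 was lowest of all at -0.47 and had the lowest value of any library for 29 of the 32 members. WT DCS replicate 2 was highest at 0.23 and had the highest value of any library for 15 members.

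**Figure D1:**
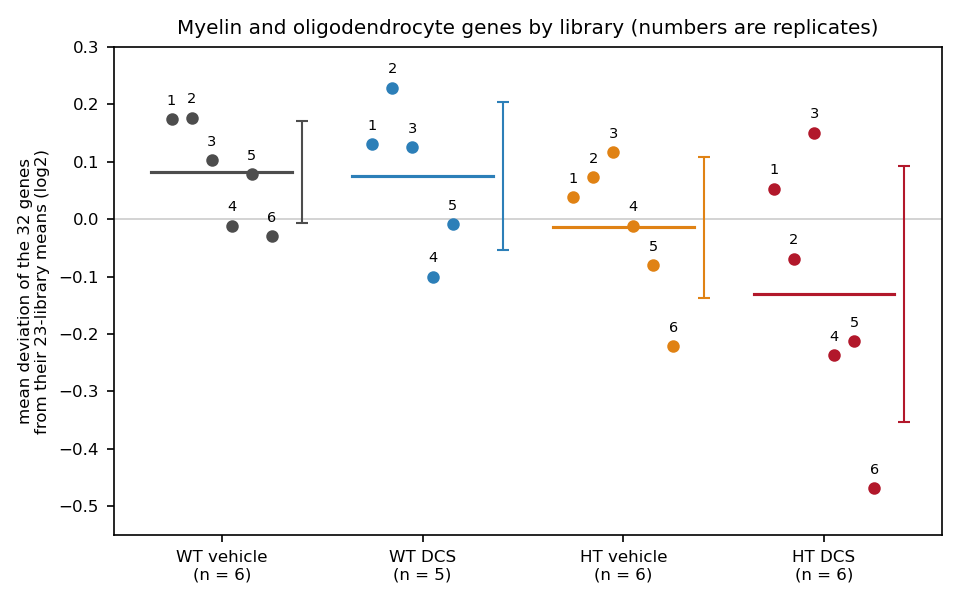
Mean log2 deviation of the 32 genes from their 23-library means, 1 point per library, numbered by replicate, with the group mean (line) and SD (bar at right). HT DCS spans the widest range, from -0.47 in replicate 6 to 0.15 in replicate 3, and overlaps every other group.

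With DCS, the heterozygous libraries had lower means than the wild-type libraries for all 32 members, and no single gene passed the test. Mbp averaged 199195 ± 28981 normalised reads in HT DCS (n = 6) against 225343 ± 16274 in WT DCS (n = 5), and Mag 13356 ± 1362 against 15696 ± 869. The median log2 difference over the members was -0.19, and individual differences ran from -0.53 for Trf to -0.05 for Myrf. For comparison, 50.2% of the 17256 genes tested had a lower mean, and their median difference was -0.00032. The smallest adjusted p of a member was 0.596, for Mag (limma with Benjamini-Hochberg adjustment over all genes), and limma called 0.00% of the 17256 genes. At an unadjusted p under 0.05, 18 members were lower and 0 higher, against 4.13% of all genes lower and 3.42% higher. In no member did all HT DCS libraries lie below all WT DCS libraries, a pattern that 0.243% of all genes showed. For 6 members all 6 HT DCS libraries lay below the WT DCS mean, and for 15 members 5 of the 6 did.

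The count of 18 rested on several libraries. It was 11 without HT DCS replicate 4, 11 without HT DCS replicate 5, 8 without HT DCS replicate 6, 10 without WT DCS replicate 1 and 9 without WT DCS replicate 2. It was 24 without HT DCS replicate 3 or WT DCS replicate 4. Over all 11 such omissions the member median stayed between -0.24 and -0.14, and 31 or 32 members had the lower mean. Leaving out HT DCS replicates 5 and 6 together gave a median of -0.08, with 32 members lower and 2 at an unadjusted p under 0.05.

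**Figure D2:**
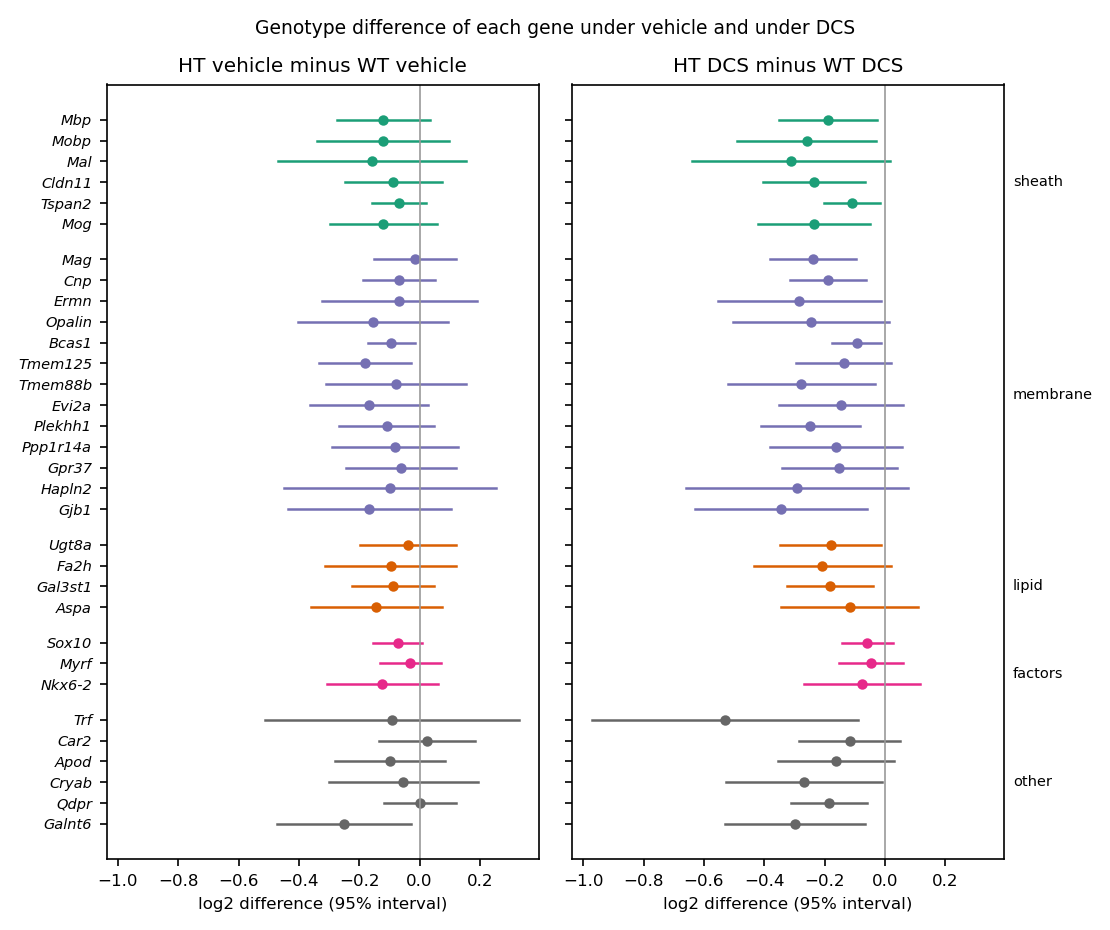
Difference of each of the 32 genes between HT and WT libraries (log2, point) with its 95% interval from limma (line), under vehicle at left and under DCS at right, grouped by role from the sheath proteins at the top to secreted and metabolic genes at the bottom. Under DCS every point lies below 0 and Trf lies farthest out at -0.53, and under vehicle all points but those of Car2 and Qdpr lie below 0.

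The 6 proteins of compact myelin and of the sheath surface had a median difference of -0.24 between HT DCS and WT DCS, and 5 of the 6 had an unadjusted p under 0.05. Mbp, the basic protein that holds the cytoplasmic faces of the membrane together, measured 243945, 242000, 217215, 212706 and 210849 normalised reads in WT DCS replicates 1 to 5. In HT DCS its lowest, median and highest values were 155531, 199074 and 238590. HT DCS replicates 2, 4, 5 and 6 lay below every WT DCS library and replicate 3 lay among the highest, so the groups overlapped. The log2 difference was -0.19 ± 0.08 (SE, limma adjusted p = 0.641). Under vehicle Mbp ranged from 218993 through a median of 238228 to 246782 in WT and from 192775 through 221117 to 230768 in HT. All 6 HT vehicle libraries lay below the WT vehicle mean, with a log2 difference of -0.12 ± 0.07 (limma adjusted p = 0.999).

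Mog, a glycoprotein of the outermost membrane, measured 5662, 5758, 5496, 4785 and 5344 normalised reads in WT DCS. Its HT DCS values ran from 3546 through a median of 4578 to 5796, so the highest HT DCS library exceeded every WT DCS library. The log2 difference was -0.24 ± 0.09 under DCS and -0.12 ± 0.09 under vehicle, where Mog ranged from 5039 to 5962 in WT (median 5486) and from 4479 to 5364 in HT (median 5110). Mobp, a basic protein of compact myelin, ran from 41363 through 45928 to 51130 in WT DCS and from 28280 through 38792 to 49455 in HT DCS, a log2 difference of -0.26 ± 0.11. Cldn11, which forms the tight junctions of the sheath, ran from 10044 through 11599 to 11955 and from 7226 through 9796 to 11194, a difference of -0.24 ± 0.08. All 6 HT DCS libraries were below the WT DCS mean for Cldn11, and 5 of 6 for Mobp. Mal, a raft proteolipid, had the widest difference among these genes at -0.31 ± 0.16, and the tetraspanin Tspan2 the narrowest at -0.11 ± 0.05.

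**Figure D3:**
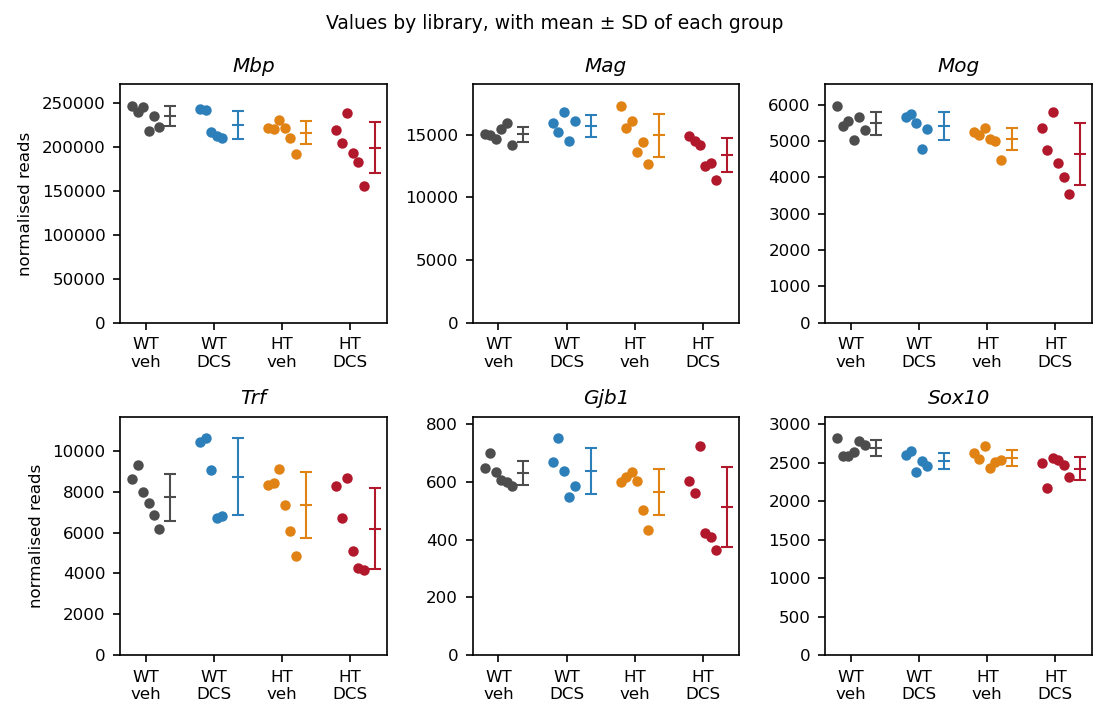
Normalised reads of 6 of the genes in each library (points), with mean ± SD of each group at its right and each axis starting at 0. Mbp in HT DCS runs from 155531 to 238590 and overlaps WT DCS, Trf has the widest spread relative to its mean, and Sox10 the narrowest of the 6.

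Among the 13 periaxonal, cytoskeletal and membrane proteins the median difference between HT DCS and WT DCS was -0.24, and 7 of the 13 had an unadjusted p under 0.05. Mag, the adhesion protein that faces the axon, measured 15901, 15185, 16787, 14521 and 16085 normalised reads in WT DCS and 14918, 14452, 14134, 12533, 12729 and 11367 in HT DCS replicates 1 to 6. All 6 HT DCS libraries lay below the WT DCS mean and 5 lay below its lowest library. The log2 difference was -0.24 ± 0.07, with the smallest unadjusted p of any member, 0.0022 (limma adjusted p = 0.596). Under vehicle Mag ran from 14177 through 15017 to 15898 in WT and from 12663 through 14974 to 17265 in HT, and 3 of the 6 HT libraries lay below the WT mean. The vehicle difference was -0.02 ± 0.07.

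Cnp, an enzyme and scaffold of non-compact myelin, had a difference of -0.19 ± 0.06 under DCS (limma adjusted p = 0.596) and -0.07 ± 0.06 under vehicle. It measured 27068, 27279, 27186, 24975 and 25902 normalised reads in WT DCS, and its lowest, median and highest HT DCS values were 19471, 23414 and 26861. HT DCS replicate 3 was the only HT DCS library above the WT DCS mean. Plekhh1 had the second smallest unadjusted p of the members, 0.0045, at a difference of -0.25 ± 0.08. It ran from 1515 through 1679 to 1827 in WT DCS and from 1110 through 1429 to 1626 in HT DCS, with all 6 below the WT DCS mean. Gjb1, the connexin 32 gap junction protein, at chrX:101376378-101385629 on the plus strand, had the widest difference of these 13 genes, -0.34 ± 0.14. Its values were 667.6, 750.7, 638.0, 546.1 and 587.4 in WT DCS and ran from 365.1 through 492.1 to 725.7 in HT DCS.

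Ermn, a cytoskeletal protein of late oligodendrocytes, ran from 1769 through 2138 to 2393 normalised reads in WT DCS and from 1332 through 1657 to 2163 in HT DCS, a difference of -0.28 ± 0.13. Opalin, a transmembrane protein of central myelin, ran from 731.5 through 982.0 to 1098 and from 540.9 through 838.5 to 999.5, a difference of -0.24 ± 0.13. Under vehicle the differences of the 2 genes were -0.07 ± 0.12 and -0.15 ± 0.12. For each of them the HT DCS range was displaced downward and still overlapped that of WT DCS. Bcas1, a marker of newly myelinating cells, had a narrow range and differed by -0.09 ± 0.04 under DCS and by -0.09 ± 0.04 under vehicle. The rest of these 13 genes under DCS lay between Hapln2, a link protein of the nodal matrix, at -0.29 ± 0.18 and Tmem125 at -0.14 ± 0.08.

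The 4 genes of myelin lipid and acetate metabolism had a median difference of -0.18 between HT DCS and WT DCS, and 2 of the 4 had an unadjusted p under 0.05. Ugt8a, which makes galactosylceramide, ran from 7101 through 7772 to 8499 normalised reads in WT DCS and from 5931 through 6859 to 8071 in HT DCS, a difference of -0.18 ± 0.08. Gal3st1, which sulphates that lipid, ran from 983.7 through 1045 to 1093 and from 744.6 through 908.7 to 1129, a difference of -0.18 ± 0.07. Fa2h, which hydroxylates the fatty acids of myelin lipids, ran from 2888 through 3485 to 3653 and from 2184 through 2801 to 3611, a difference of -0.21 ± 0.11. In each of these genes HT DCS replicate 3 was the highest of its group and lay within or above the WT DCS range. Aspa, which releases acetate from N-acetylaspartate, had the smallest difference of the 4, -0.12 ± 0.11, with ranges of 419.0 to 549.7 in WT DCS (median 520.9) and 349.1 to 566.7 in HT DCS (median 448.9). Under vehicle the 4 differences lay between -0.14 for Aspa and -0.04 for Ugt8a, and none had an unadjusted p under 0.05.

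The 3 transcription factors differed least, with a median of -0.06 between HT DCS and WT DCS and 0 of 3 at an unadjusted p under 0.05. Sox10, needed throughout the oligodendrocyte lineage, measured 2602, 2649, 2377, 2518 and 2457 normalised reads in WT DCS and ran from 2167 through 2479 to 2555 in HT DCS, a difference of -0.06 ± 0.04. Myrf, which drives the myelin genes, ran from 2769 through 3081 to 3413 and from 2850 through 2869 to 3193, a difference of -0.05 ± 0.05. Its 6 HT DCS libraries all lay within the WT DCS range. Nkx6-2, a homeodomain factor of oligodendrocytes, ran from 427.1 through 471.8 to 536.7 and from 336.4 through 466.6 to 546.9, a difference of -0.08 ± 0.09. In HT DCS replicate 6, where the 32 members averaged -0.47, Myrf deviated by -0.06, Sox10 by -0.13 and Nkx6-2 by -0.51 from their 23-library means. Under vehicle the factors had a median difference of -0.07 between HT and WT, against -0.09 for all 32 members. Nkx6-2 differed by -0.12 ± 0.09 there, Sox10 by -0.07 ± 0.04 and Myrf by -0.03 ± 0.05. Whether the factors differ from the other members in their genotype difference was not tested.

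The 6 secreted, metabolic and other genes had a median difference of -0.23 between HT DCS and WT DCS, and 4 of the 6 had an unadjusted p under 0.05. Trf, at chr9:103204001-103230444 on the minus strand, encodes the iron carrier transferrin, which oligodendrocytes make in large amounts. It measured 10461, 10619, 9088, 6704 and 6837 normalised reads in WT DCS and 8266, 6710, 8659, 5098, 4274 and 4177 in HT DCS replicates 1 to 6. The spread within groups was wide, with WT DCS replicates 4 and 5 below HT DCS replicates 1 and 3. The log2 difference was -0.53 ± 0.21, the largest of any member (limma adjusted p = 0.641), against -0.09 ± 0.20 under vehicle. Galnt6, a glycosyltransferase, differed by -0.30 ± 0.11 under DCS and by -0.25 ± 0.11 under vehicle. Qdpr, which regenerates tetrahydrobiopterin, differed by -0.19 ± 0.06 under DCS and by 0.00 ± 0.06 under vehicle. Cryab, a small heat shock protein, differed by -0.27 ± 0.12 under DCS, and Car2 and Apod by -0.12 ± 0.08 and -0.16 ± 0.09.

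**Figure D4:**
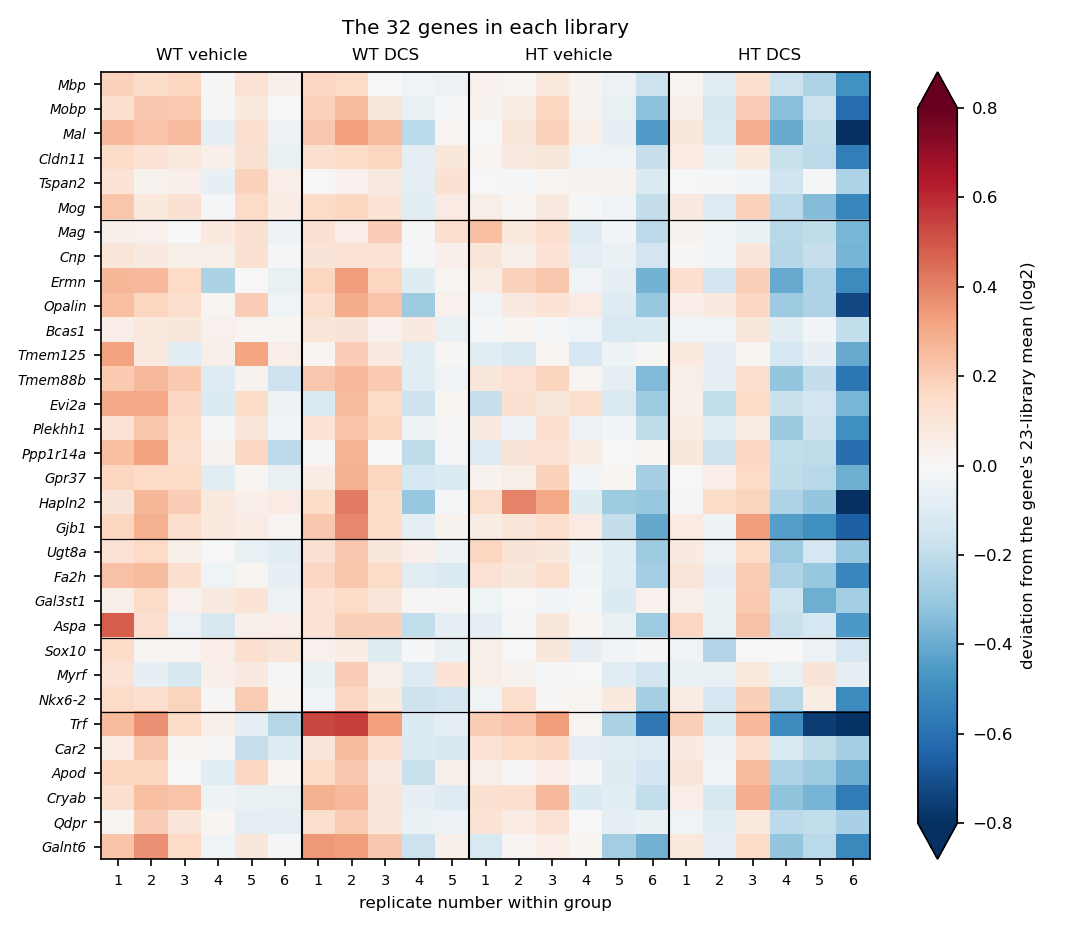
Log2 deviation of each of the 32 genes (rows, ordered by role, with lines between roles) from its 23-library mean in each library (columns, by group and replicate number), blue below and red above the mean. The column of HT DCS replicate 6 is the darkest blue, with 32 of 32 genes below their means, and the rows of Bcas1 and Sox10 are the palest.

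Under vehicle, the same genotype comparison gave a smaller median difference. The HT vehicle mean was lower than the WT vehicle mean for 30 of the 32 members, against 50.3% of all genes, and the median difference was -0.09. At an unadjusted p under 0.05, 3 members were lower and 0 higher, against 2.03% of all genes lower and 2.19% higher. These were Bcas1 at -0.09 ± 0.04, Tmem125 at -0.18 ± 0.07 and Galnt6 at -0.25 ± 0.11, and the smallest adjusted p of any member was 0.999 (limma). Bcas1 ran from 6139 through 6273 to 6487 normalised reads in WT vehicle and from 5580 through 5995 to 6171 in HT vehicle, and 5 of the 6 HT libraries lay below every WT library. Tmem125 ran from 494.7 through 550.9 to 657.7 and from 478.5 through 502.3 to 533.3, and Galnt6 from 342.2 through 381.1 to 451.6 and from 267.3 through 337.0 to 363.1. For each of these 3 genes all 6 HT vehicle libraries lay below the WT vehicle mean. In no member did all HT vehicle libraries lie below all WT vehicle libraries, against 0.133% of all genes. The count of 3 was 1 without HT vehicle replicate 5, HT vehicle replicate 6 or WT vehicle replicate 1, and 5 without WT vehicle replicate 4.

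Averaged over vehicle and DCS, the HT mean was lower for 32 of 32 members, against 50.5% of all genes, with a median difference of -0.15. This contrast reuses the libraries of the comparisons above. At an unadjusted p under 0.05, 20 members were lower and 0 higher, against 3.96% of all genes lower and 3.21% higher. They included all 6 sheath proteins, 9 of 13 periaxonal and membrane proteins, 1 of 4 lipid enzymes, 1 of 3 factors and 3 of 6 secreted and metabolic genes. The smallest unadjusted p were those of Galnt6 at -0.27 ± 0.08, Bcas1 at -0.09 ± 0.03 and Plekhh1 at -0.18 ± 0.06, with a smallest adjusted p of 0.461 (limma). The count was 13 without WT DCS replicate 2 and between 14 and 29 without any other single library.

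DCS itself was set against vehicle within each genotype. In wild-type libraries 17 of 32 members had a lower mean with DCS, against 49.7% of all genes, and the median difference was -0.0029. The direction of the median turned with single libraries. Without WT DCS replicate 4 the median was 0.04 with 8 members lower, without WT vehicle replicate 1 or 2 it was 0.01 with 11 lower, and without WT DCS replicate 2 it was -0.04 with 25 lower. Only Sox10 had an unadjusted p under 0.05, at -0.09 ± 0.04 (limma adjusted p = 1.0), against 1.62% of all genes lower. It ran from 2587 through 2685 to 2814 normalised reads in WT vehicle and from 2377 through 2518 to 2649 in WT DCS, with ranges that overlapped. The smallest p after that were those of Nkx6-2 at -0.13 ± 0.09 and Tmem125 at -0.08 ± 0.08. No member had an unadjusted p under 0.05 when any 1 of 5 libraries was omitted, namely WT DCS replicate 3 or 5 or WT vehicle replicate 1, 5 or 6.

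In heterozygous libraries 31 of 32 members had a lower mean with DCS, against 50.7% of all genes, and the median difference was -0.13. At an unadjusted p under 0.05, 2 members were lower, Qdpr at -0.15 ± 0.06 and Mag at -0.16 ± 0.07, against 2.58% of all genes lower and 2.22% higher, with a smallest adjusted p of 0.973 (limma). Sox10 followed at -0.08 ± 0.04. Qdpr ran from 1952 through 2100 to 2220 normalised reads in HT vehicle and from 1709 through 1861 to 2168 in HT DCS. The count of 2 was 9 without HT DCS replicate 1, 13 without HT DCS replicate 3, 7 without HT vehicle replicate 6, 1 with HT vehicle replicate 1 or 3 omitted, and 0 with HT DCS replicate 6 omitted, where the median was -0.06. Leaving out HT DCS replicates 5 and 6 together gave a median of -0.01, with 20 members lower and 0 at an unadjusted p under 0.05, and libraries numbered 1 to 3 alone gave -0.03, with 23 lower and 2 at that level. Averaged over genotypes, 31 members had a lower mean with DCS (median -0.06), against 50.8% of all genes. Sox10 alone had an unadjusted p under 0.05, at -0.09 ± 0.03, against 1.58% of all genes lower. The count of 1 was 3 without HT DCS replicate 1 or HT vehicle replicate 6, 5 without HT DCS replicate 3, and 2 without WT DCS replicate 2 or WT vehicle replicate 6. Without HT DCS replicates 5 and 6 together, 20 members were lower in this average (median -0.0079). The next smallest p were those of Ppp1r14a at -0.14 ± 0.07 and Mbp at -0.10 ± 0.05.

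The test of whether the genotype difference itself changed with DCS gave a lower value for 27 of 32 members, against 50.7% of all genes. The member median was -0.11 on the log2 scale. Mag at -0.22 ± 0.10 and Qdpr at -0.19 ± 0.08 were the 2 members at an unadjusted p under 0.05, against 2.07% of all genes lower and 2.31% higher (smallest limma adjusted p = 0.984). Trf had the largest value, -0.44 ± 0.29. No difference of the genotype effect between treatments therefore passed the adjusted threshold. The count of 2 was 4 without HT DCS replicate 3. It was 1 without HT DCS replicate 5, HT vehicle replicate 2, WT DCS replicate 1 or 2, or WT vehicle replicate 5 or 6. It was 0 without HT DCS replicate 4 or 6, WT DCS replicate 3, or HT vehicle replicate 1 or 3. The median was -0.03 with HT DCS replicate 6 omitted. Without HT DCS replicates 5 and 6 together the direction was lost, with 14 of 32 members lower, a median of 0.0085 and 0 at an unadjusted p under 0.05. Libraries numbered 1 to 3 alone gave a median of -0.03, with 19 lower.

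Other genes of the same cells had lower means as well. In a list of 62 further measured genes of myelin and mature oligodendrocytes, 57 had a lower mean in HT DCS than in WT DCS, with a median of -0.13, and 26 were lower and 1 higher at an unadjusted p under 0.05. Among those with the smallest p were Cdc42ep2, a Cdc42 effector, at -0.25 ± 0.06, the secreted protein Lgi3 at -0.14 ± 0.04 and the netrin receptor Unc5b at -0.17 ± 0.06. In HT DCS Cdc42ep2 measured 543.0 ± 42.0 normalised reads, and 647.0 ± 36.9 in WT DCS, with a limma adjusted p of 0.498. Under vehicle 50 of the 62 had the lower mean, with a median of -0.03 and 3 at an unadjusted p under 0.05, namely Pllp, Lgi3 and Elovl7. Among all genes 50.2% had a lower mean under DCS, with 4.13% lower and 3.42% higher at an unadjusted p under 0.05. Under vehicle these shares were 50.3%, 2.03% and 2.19%.

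Genes of a list for oligodendrocyte precursors had higher means more often than lower ones. Of 38, 25 had a higher mean in HT DCS than in WT DCS, with a median of 0.04. At an unadjusted p under 0.05, 4 were higher and 2 lower, against 3.42% of all genes higher and 4.13% lower. Id4, an inhibitor of differentiation, measured 2035 ± 62.5 against 1857 ± 102 normalised reads (log2 difference 0.13 ± 0.04), Ednrb differed by 0.16 ± 0.06 and Vcan by 0.32 ± 0.14. Olig1 was on the lower side at -0.10 ± 0.04. Pdgfra, the receptor that keeps precursors dividing, averaged 2227 ± 140 in WT vehicle, 2271 ± 134 in WT DCS, 2409 ± 130 in HT vehicle and 2452 ± 141 in HT DCS. Under vehicle 27 of the 38 had a higher mean, with a median of 0.02 and 4 higher at an unadjusted p under 0.05, namely Rlbp1, Cspg4, Pdgfra and Bmp4. The share of all genes with a lower mean was 50.2% under DCS and 50.3% under vehicle, and 2.19% were higher at that level under vehicle. No gene of this list passed the adjusted threshold, and whether the list differs from the myelin genes was not tested. Which cells of the tissue gave these values was not tested either.

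Of 18 axonal partners of the sheath at the node and paranode, 12 had a lower mean in HT DCS than in WT DCS, with a median of -0.05, and 3 were lower at an unadjusted p under 0.05. These were the paranodal proteins Cntnap1 at -0.12 ± 0.03 and Epb41l3 at -0.12 ± 0.04 and the juxtaparanodal adhesion protein Cntn2 at -0.13 ± 0.05. Of 23 genes of cholesterol synthesis and uptake, which supply the sterol of the membrane, 18 had a lower mean, with a median of -0.04, and 2 were lower at an unadjusted p under 0.05. Under vehicle the medians of these lists were -0.01 and -0.02, with 0 genes of either at an unadjusted p under 0.05. Among all genes 50.2% had a lower mean under DCS, and 4.13% were lower at an unadjusted p under 0.05.

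Markers of brain regions differed between the groups as well. The 16 measured genes of a hindbrain and spinal list, mostly Hox genes and genes of monoamine neurons, had a mean log2 level of 4.04 in HT DCS replicate 5 and 4.25 in HT DCS replicate 6. The lowest wild-type library stood at 5.27. HT vehicle replicates 3, 4 and 6, at 5.12, 4.89 and 4.88, were also below every wild-type library. With HT DCS replicates 5 and 6 they make 5 of the 12 HT libraries. This low set can by its definition hold no WT library. Hoxa5 was listed at 0 in HT DCS replicate 6 and Hoxb2 at 0 in HT DCS replicate 5, and each gene was above 0 in every other library. Not every gene of the list was low in these libraries. Slc6a2 was at 95.6 normalised reads in HT DCS replicate 6 and Chat at 167.6 in HT DCS replicate 5, each above every WT library. Slc6a5, at 421.2 in replicate 5 and 507.5 in replicate 6, and Tph2, at 166.3 in replicate 5, lay below every WT library. The summed level of the list ran from 1857 to 2417 normalised reads in WT vehicle, 1789 to 2256 in WT DCS, 1582 to 2325 in HT vehicle and 1125 to 2224 in HT DCS. Of the 16 genes, 14 had a lower mean in HT DCS than in WT DCS (median -0.42, 3 lower and 1 higher at an unadjusted p under 0.05) and 13 in HT vehicle than in WT vehicle (median -0.41). The shares of all genes with a lower mean were 50.2% and 50.3%.

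The member differences were smaller once these values entered the fit. With the hindbrain mean as a covariate, 32 members were still lower between HT DCS and WT DCS, the median went from -0.19 to -0.12 and 5 rather than 18 had an unadjusted p under 0.05. Under vehicle the median with the covariate was -0.02, with 23 of 32 lower, and averaged over treatments it was -0.07, with 31 lower and 3 at an unadjusted p under 0.05. Leaving out the 5 low HT libraries, a choice made after seeing the data, gave a median of -0.08 between HT DCS and WT DCS with 32 lower and 4 at an unadjusted p under 0.05. The same omission gave -0.06 with 28 lower under vehicle, -0.04 with 24 lower between HT DCS and HT vehicle, and -0.02 with 20 lower in the test of the genotype difference between treatments. HT DCS replicate 4 combined a low member mean of -0.24 with a hindbrain mean of 5.46, inside the wild-type range. The hindbrain level and the genotype cannot be fully told apart, since the lowest values occur in HT libraries alone.

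**Figure D5:**
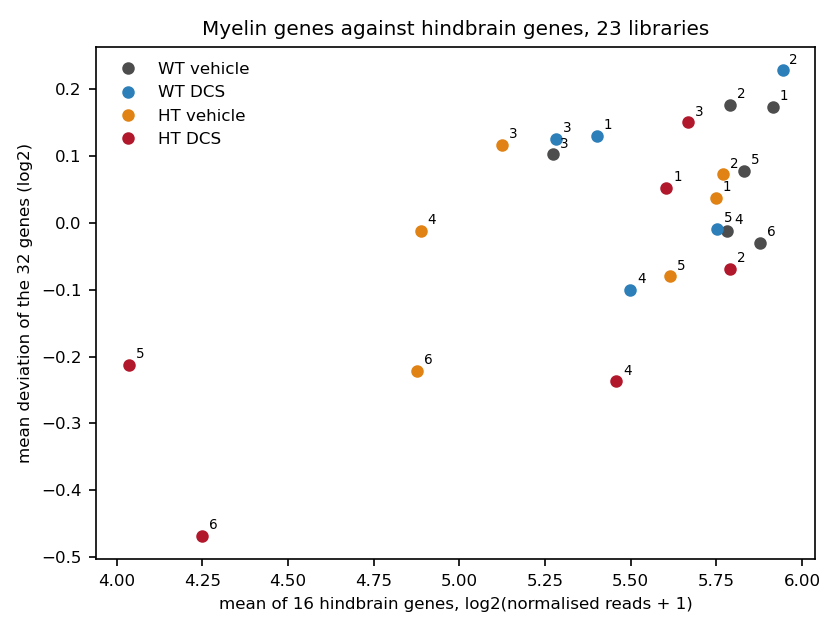
Mean log2 deviation of the 32 genes (vertical) against the mean log2 level of 16 hindbrain genes (horizontal), 1 point per library, coloured by group and numbered by replicate. HT DCS replicates 5 and 6 lie at the far left, at 4.04 and 4.25, while HT DCS replicate 4 is low on the vertical axis within the horizontal range of the WT libraries.

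Markers of other cells and regions gave smaller medians between HT DCS and WT DCS. Of 15 cerebellar genes, 14 had a lower mean (median -0.10, with Gabra6, Fat2 and Cbln3 at an unadjusted p under 0.05). In HT DCS their normalised reads summed to 58836 at the lowest, 73436 at the median and 76542 at the highest. The lowest sum was that of replicate 5, the library with the lowest hindbrain mean. In WT DCS the sums were 72947, 75937 and 81946. The mean log2 deviation of the cerebellar list in HT DCS was -0.06, with libraries from -0.33 to 0.04. Of 12 cortical and hippocampal genes, 11 had a higher mean (median 0.05, with 1 higher at an unadjusted p under 0.05). Of 12 neuronal genes, 7 had a lower mean (median -0.02), with the 3 neurofilament genes Nefm at -0.17 ± 0.04, Nefh at -0.15 ± 0.06 and Nefl at -0.08 ± 0.03 the genes at an unadjusted p under 0.05. Of 16 microglial genes, 14 had a higher mean (median 0.11), and 16 of 16 did under vehicle (median 0.12), with 0 at an unadjusted p under 0.05 in either case. Of 15 astrocyte genes, 7 had a lower mean (median 0.02, with 1 lower at an unadjusted p under 0.05). Of 12 endothelial genes, 10 had a higher mean (median 0.06, with 2 higher at an unadjusted p under 0.05). Choroid plexus genes had a lower mean in 9 of 12 (median -0.13, with Clic6 and Folr1 lower at an unadjusted p under 0.05), and their summed level ran from 14876 to 22984 in HT DCS and from 16929 to 28547 in WT DCS. Between HT vehicle and WT vehicle the choroid plexus list went the other way, with a higher mean in 10 of 12 (median 0.21) and Kl, Kcne2, Folr1 and Aqp1 higher at an unadjusted p under 0.05. Among all genes 50.2% had a lower mean under DCS, with 4.13% lower and 3.42% higher at an unadjusted p under 0.05. Under vehicle these shares were 50.3%, 2.03% and 2.19%.

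Peripheral myelin genes were summed and counted in the same way. Prx, a scaffold protein of Schwann cells, averaged 26.9 to 34.7 normalised reads over the 4 group means. Over the 10 measured genes of that list, 7 had a lower mean in HT DCS than in WT DCS, with a median of -0.06 and 0 at an unadjusted p under 0.05. Under vehicle 8 of the 10 had a higher mean in HT, with a median of 0.19 and again 0 at an unadjusted p under 0.05. The share of all genes with a lower mean was 50.2% under DCS and 50.3% under vehicle. The summed level of the list ran from 3891 to 4407 in HT DCS and from 3873 to 4494 in WT DCS. No marker of these other cell types was listed at 0 in any library. The part of these cell types and regions in the member differences was not tested. The hindbrain fits cannot fully separate region from genotype, since the lowest hindbrain values occur in HT libraries alone.

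The members also differed by replicate number, whose meaning the labels do not give. Libraries numbered 4 to 6 had a lower mean than libraries numbered 1 to 3 for 28 of 32 members in WT vehicle, 32 in WT DCS, 31 in HT vehicle and 30 in HT DCS, where between 49.7% and 50.8% of all genes did. The median differences were -0.15, -0.21, -0.16 and -0.34. Between HT DCS and WT DCS the member median was -0.10 among numbers 1 to 3, with 32 lower and 10 at an unadjusted p under 0.05, and -0.27 among numbers 4 to 6, with 32 lower and 18. Between HT vehicle and WT vehicle it was -0.08 with 26 lower and -0.12 with 29 lower. All 4 groups hold both sets of numbers, so the split does not run along the groups. With the 2 sets of numbers as a covariate, 25 rather than 18 members had an unadjusted p under 0.05 between HT DCS and WT DCS, 6 rather than 3 between HT vehicle and WT vehicle, 16 rather than 2 between HT DCS and HT vehicle, and 27 rather than 20 for genotype averaged over treatments. The medians of these 4 comparisons were -0.17, -0.09, -0.13 and -0.14, and no member passed the adjusted threshold (smallest limma adjusted p = 0.0764).

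Among the 10 genes outside the list whose within-group deviations followed the member mean most closely were, in order, Plekhb1, Ndrg1, Gpd1, Gsn, S100b, Adi1, Cd82, Csrp1 and Hcn2. Their Pearson r was 0.93 to 0.98 and their Spearman rho 0.91 to 0.98 over the 23 libraries. Without the 2 libraries whose within-group deviation of the member mean lay farthest from the median of that deviation, HT DCS replicates 6 and 3, r was 0.88 to 0.96. All genes of a library share its depth and tissue makeup, whose part in these values was not tested. The genes were picked for their r. Of those named, Ndrg1, Gsn and Cd82 are on the list of further myelin genes. Ndrg1 averaged 1760 ± 177 normalised reads in WT vehicle, 1837 ± 242 in WT DCS, 1752 ± 201 in HT vehicle and 1517 ± 289 in HT DCS, and 1078 in HT DCS replicate 6. S100b, often used as an astrocyte marker, averaged 3965 ± 284 normalised reads, 4017 ± 374, 3779 ± 329 and 3563 ± 590 in the same order. Hcn2, a cation channel gene, averaged 4922 ± 218, 4814 ± 513, 4674 ± 204 and 4569 ± 546.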

How the data were processed

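The authors deposited 1 table of 18848 genes by 23 libraries, holding a signal of read counts scaled between libraries (normalised reads). Tools named in the submitters' processing notes, with no roles, are DESeq2 1.26.0, Salmon 1.1.0 and R 3.6.2, and the build is GRCm38, and the labels' protocols name a stranded mRNA kit. Totals ran from 32.3 M to 33.5 M. The spacing of low values put the depth at about 25.6 M to 37.4 M reads, but only 56.6% to 76.9% of low values (up to 5 reads' worth) came within 0.15 of a whole read, so counts were not recovered and a count test was not used. Scaling hides differences in total RNA.

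limma 3.58.1 in R 4.3.3 was fitted to log2(value + 1) for 17256 genes (mean of 10 or more), with 1 coefficient per group, trended and robust moderation, and two-sided p-values adjusted by the Benjamini-Hochberg method at 0.05. The script was tested on simulated data. The 7 contrasts share groups. The members and the gene lists were chosen with earlier results of these data known, so their counts are descriptions without a test. Symbols came from a gene table (16 identifiers without one), and exon lengths from GENCODE. Named are 17 members chosen by role, the 3 members with the smallest p in each contrast, up to 4 genes of other lists, genes among the 10 most alike in pattern, and a few others as examples. Some genes these rules name are not reported here. Alternatives were other pseudocounts, filters, scaling, weights, covariates, blocks and omitted libraries. The fifth WT DCS library is numbered 5 in its title and 6 in its description. Same-numbered libraries were checked for shared deviations. Most pairs shared little, and whether the numbers link libraries stays unsettled.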

Additional observations from a re-analysis of the deposited data

Results flagged for a closer look

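Tspan2 in HT vehicle was the only value set apart from its group, with 8788 normalised reads in replicate 6, the lowest of the 6. Its gap to the next library was 0.676 of the range of the group. In all, 132 sets of member values were examined, and chance sets apart about 1 in 20 such groups. Replicate 6 was also the lowest HT vehicle library for 26 of the 32 members.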

How the results depend on the processing

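Under every setting run, 0 of the 32 members passed the adjusted threshold of limma in any contrast, the smallest adjusted p being 0.0608. Counts of all genes past it left 0 in these cases. Averaged over treatments, genotype gave 2 genes with quantile normalisation, 1 with array weights, 6 with the replicate block under either numbering, 4 with numbers 1 to 3 against 4 to 6 as a covariate and 1 with numbers 4 to 6 only. Numbers 4 to 6 only also gave 1 gene in HT DCS against WT DCS, in WT DCS against WT vehicle, in the interaction and in treatment averaged over genotypes. Leaving out single libraries gave 0 to 1 genes, with 1 for genotype averaged (without HT DCS replicate 2 or HT vehicle replicate 6) and for HT DCS against HT vehicle (without HT DCS replicate 4 or HT vehicle replicate 1). Mbp, Mag, Cnp and Mog changed sign in 26 cases and kept it in 870, none past the threshold. For HT vehicle against WT vehicle, Mbp was 0 with quantile normalisation, where the top-ranked gene takes the same value in every library. Mag there was 0.0159 with array weights, 0.129 with numbers 1 to 3 only, 0.0447 with the hindbrain covariate, 0.0637 without the 5 low HT libraries, and -0.0596 to 0.0299 over single omissions, positive without HT vehicle replicate 4 (0.00851), HT vehicle replicate 6 (0.0299) or WT vehicle replicate 5 (0.000359). Cnp there was 0.0126 with numbers 1 to 3 only. For WT DCS against WT vehicle, Cnp was -0.0208 with the replicate block by title, -0.00409 with the number covariate, -0.0380 with numbers 4 to 6 only, and -0.0036 to 0.0315 over single omissions, negative without WT vehicle replicate 6 (-0.0036) or WT DCS replicate 2 (-0.000327). Mog there was 0.0138 with the hindbrain covariate and -0.0471 to 0.0207 over single omissions, positive without WT DCS replicate 4 (0.0207) or WT vehicle replicate 1 (0.00143). For HT DCS against HT vehicle, Mog was 0.00633 with numbers 1 to 3 only and 0.00166 without HT DCS replicates 5 and 6. In the interaction, Mbp was 0.0357 and Mog 0.00704 with numbers 1 to 3 only, 0.0450 and 0.0244 without HT DCS replicates 5 and 6, and Mbp was 0.0331 without the 5 low HT libraries and -0.123 to 0.000983 over single omissions, positive without HT DCS replicate 6. For treatment averaged, Mog was 0.00281 with numbers 1 to 3 only. The cause was not tested.

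Libraries with the same number in the title mostly shared little deviation over all genes. Of 33 same-number pairs 5 had r over 0.1 (range -0.07 to 0.30), and 7 of 23 libraries correlated best with their own number. The check cannot settle whether the numbers link libraries, which the labels do not state. With the replicate block, HT DCS against WT DCS had 23 (title) or 24 (description) members at an unadjusted p under 0.05 rather than 18, and genotype averaged 26 or 29 rather than 20. Under vehicle the block gave 8 or 6 rather than 3, in HT DCS against HT vehicle 18 or 17 rather than 2, in treatment averaged 17 or 7 rather than 1, in the interaction 4 or 7 rather than 2, and in WT DCS against WT vehicle 2 or 1 rather than 1. With only the groups of the contrast in the fit, the counts were 9 for HT DCS against WT DCS and 7 under vehicle.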

Other observations

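The 10 genes whose within-group deviations ran most against the member mean were chosen after their values were seen, with Pearson r of -0.93 to -0.88 over 23 libraries and of -0.90 to -0.83 without HT DCS replicates 6 and 3. They include Dpysl3 and Dpysl5, which act in growing axons and dendrites, the kinesin Kif21b, the cell adhesion gene Cxadr and the matrix gene Npnt. Dpysl3 averaged 4266 ± 498 normalised reads in WT vehicle, 4357 ± 718 in WT DCS, 4510 ± 415 in HT vehicle and 4753 ± 931 in HT DCS, and reached 6075 in HT DCS replicate 6. Cxadr averaged 2033 ± 226, 2052 ± 258, 2207 ± 280 and 2420 ± 417 in the same order, and reached 3026 in that library. None of the 10 passed the adjusted threshold between HT DCS and WT DCS.

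Of the members, Hapln2 deviated most in HT DCS replicate 6, by -1.06 on the log2 scale, with 212.8 normalised reads against a group median of 409.6. Mal deviated by -0.81 and Trf by -0.79 there.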
